A study of Homo sapiens with 10 samples.

Results

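RAB GTPases are small membrane proteins that cycle between a GDP-bound form in the cytosol and a GTP-bound form on a membrane, where they recruit effectors that tether, move and fuse vesicles. Each RAB marks a particular compartment, and most carry cysteines at their C-terminus to which lipids are attached. RAB27A, RAB27B, RAB11A and RAB35 are known from studies of human cell lines for their part in docking and fusing endosomes that release vesicles from the cell, so their mRNAs were followed here in the released vesicles. The genes described are the protein-coding RAB genes, defined as the rows of the count table that GENCODE release 29 annotates as protein-coding and whose symbol is RAB followed by a number and at most 1 letter, with RAB13 left out. There were 62 such genes among the 94946 entries of the table, of which 19969 are protein-coding. The rule itself used symbols only and no measured value, but this gene family was chosen with earlier results of these data known.

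Total RNA was sequenced from PC3, an androgen-independent line of human prostate cancer cells that came from a bone metastasis, grown with no stated treatment in medium with fetal bovine serum. The groups are extracellular vesicles (EVs) pelleted at spins labelled 2.8K, 10K and 100K, with 3 libraries each, and 1 library of whole PC3 cells. The labels give no unit of the spin, and neither the number of vesicles per pellet nor their purity. The labels do not state separate cultures for the 3 libraries of a pellet, so all p-values rest on a spread between libraries that may be technical. All values come from 1 line, and in a pellet more vesicles carrying an mRNA and more copies per vesicle cannot be told apart.

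Library totals lay between 10288246 and 14977955 counts for EV 2.8K, between 7933251 and 10864958 for EV 10K and between 5424964 and 8083438 for EV 100K, against 28735081 for the cells. The biological coefficient of variation, the spread between libraries beyond counting error, was 0.941 for EV 2.8K, 0.739 for EV 10K and 0.273 for EV 100K, so the fastest pellet was the most even of the 3. All 7 markers listed for PC3 were counted in every group, with summed levels of 2625 to 3477 CPM (counts scaled to a library total of 1e+06) in EV 2.8K, 2052 to 2671 CPM in EV 10K and 994.1 to 1171 CPM in EV 100K, against 2070 CPM in the cells. The prostate luminal genes KLK2 and KLK3 had no count in any library. The 7 blood and serum genes listed had no count in EV 2.8K, in EV 100K or in the cells, and reached at most 3.91 CPM in EV 10K. Leukocyte genes stayed at or below 3.58 CPM in every library, with PTPRC and CD3E at 0 throughout, and the fibroblast list reached 27.5 CPM in 1 EV 2.8K library, with DCN and LUM at 0. The neuron list was the other one with a sizeable level, summing to 518.1 to 1006 CPM in EV 2.8K, 597.2 to 1083 CPM in EV 10K and 347.3 to 445.6 CPM in EV 100K, against 259.3 CPM in the cells. It had counts for 2 of its 5 genes, SYT1 and NEFL, with RBFOX3, SNAP25 and GRIN1 at 0 throughout, and its part in the RAB differences was not tested. Mitochondrially encoded genes held between 4.81% and 12.9% of the counts in EV 2.8K, between 0.826% and 1.04% in EV 10K and at most 0.00802% in EV 100K, against 2.88% in the cells. With those genes removed, 8 RAB genes were still higher and 6 lower in EV 100K when set against EV 2.8K, the same numbers as with them. The part of the falling PC3 marker level in the RAB differences was not tested.

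The 62 RAB genes together took 0.182% to 0.240% of all counts in EV 2.8K, 0.236% to 0.269% of those in EV 10K and 0.226% to 0.256% of those in EV 100K, against 0.265% in the cells. They fell into 3 classes of detection. There were 37 genes counted in all 10 libraries and 18 counted in some of them, while 7 (RAB3C, RAB7B, RAB19, RAB39A, RAB39B, RAB40A and RAB41) had no count anywhere. A count of 0 allows up to 3 counts, which is 0.104 CPM in the cells and up to 0.553 CPM in the shallowest EV library. The filter on low counts left 45 RAB genes for the tests between pellets, and 6 more passed only when the cell library was included. Since a gene can pass the filter through the pellet in which it is high, the tested genes do not stand for all 62.

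Among the 10 untested genes with a count, RAB5C and RAB4B are annotated with partners that share their exons. RAB5C, an early endosome RAB, had 33 counts in EV 2.8K library 1 and none in the other 9 libraries. A readthrough gene annotated on the same strand covers 28.8% of its exon bases, and the sources do not say how reads of shared exons were counted. RAB44, a large RAB with an EF-hand domain, had 69 and 74 counts in EV 2.8K libraries 1 and 2 and none in any other library.

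The coding ends of 6 RAB mRNAs on which the results below turn are shown first, because the last codons carry the cysteines for lipid attachment and differ between closely related copies. Each sequence is the last 45 coding bases from the GENCODE release 29 annotation of GRCh38, read 5′ to 3′ on the coding strand, with cysteine codons in capitals and the stop codon at the end.
RAB27A (chromosome 15, 55205507 to 55205551, minus strand): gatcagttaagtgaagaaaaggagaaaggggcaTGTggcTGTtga
RAB27B (chromosome 18, 54889369 to 54889413, plus strand): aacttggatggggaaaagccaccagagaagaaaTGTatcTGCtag
RAB11A (chromosome 15, 65887796 to 65887840, plus strand): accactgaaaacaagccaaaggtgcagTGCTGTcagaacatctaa
RAB11B (chromosome 19, 8403514 to 8403558, plus strand): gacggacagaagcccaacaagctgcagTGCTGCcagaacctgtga
RAB4A (chromosome 1, 229302933 to 229302977, plus strand): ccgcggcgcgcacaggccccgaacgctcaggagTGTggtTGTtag
RAB40B (chromosome 17, 82657863 to 82657907, minus strand): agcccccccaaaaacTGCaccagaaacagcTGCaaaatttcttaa
RAB27A, RAB27B and RAB4A end in a cysteine codon 3 codons and again 1 codon before the stop. RAB11A and RAB11B have 2 neighbouring cysteine codons, 5 and 4 codons before it. RAB40B has its last cysteine codon 4 codons before the stop. Over the aligned coding sequence RAB27A and RAB27B are 69.2% identical, and RAB11A and RAB11B 73.7%. Of all 50-base stretches of the RAB27A transcript 4.05% also occur in the transcript of another gene, as do 0% for RAB27B, 0.266% for RAB11A and 0% for RAB11B, so stretches of this length can tell the members of either pair apart. By contrast 21.6% of the 50-base stretches of RAB6A recur in RAB6C or RAB6D, and 55.8% of RAB6C and 55.0% of RAB6D are shared, so the counts of these 3 genes are uncertain.

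Levels were compared between genes as CPM per kb of exon, scaled with TMM factors. RAB1B, which acts between the endoplasmic reticulum (ER) and the Golgi, had rank 1 of the 45 tested RAB genes in EV 2.8K at 80.9 ± 4.60 CPM per kb, rank 1 in EV 10K at 78.5 ± 11.5 and rank 4 in EV 100K at 40.7 ± 7.15 (SD, n = 3 per pellet), against rank 1 in the cells at 86.3. RAB4A, a RAB of fast endosome recycling, ranked 13 in EV 2.8K at 15.1 ± 1.39 CPM per kb, 2 in EV 10K at 65.8 ± 17.99 and 1 in EV 100K at 139.3 ± 26.5, against rank 23 in the cells at 5.57. RAB40B, which carries a SOCS box that binds a ubiquitin ligase, ranked 33, 13 and 5 in the 3 pellets in order of spin, and 34 in the cells. Late endosome RAB7A had rank 2 in EV 2.8K, rank 4 in EV 10K and rank 7 in EV 100K, against rank 3 in the cells. At the top of each other role stood RAB22A for early endosomes with a mean of 32.5 CPM per kb over the 9 EV libraries, RAB10 for secretion and exocytosis with 30.7, and RAB28 for the cilium with 11.3. RAB22A kept ranks 8, 6 and 6 in the pellets and 7 in the cells, with means of 28.2 ± 8.03, 37.6 ± 2.604 and 31.5 ± 1.61 CPM per kb and 28.5 in the cells, and passed no pellet comparison (edgeR adjusted p = 0.298, 0.717 and 0.549).

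**Figure D1:**
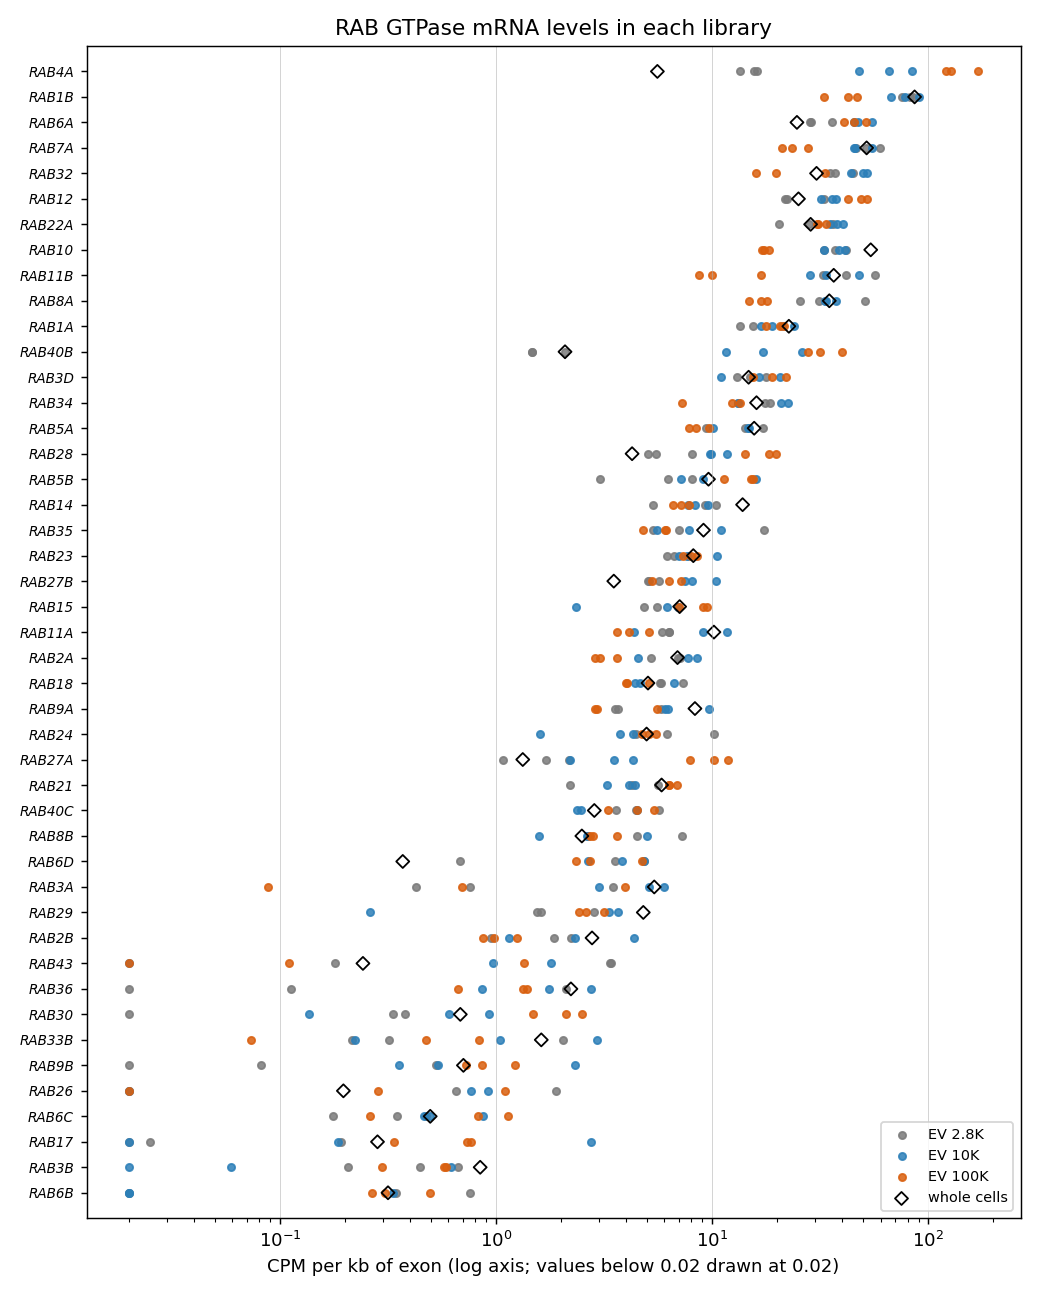
CPM per kb of exon (log axis) of the 45 RAB genes tested between pellets, ordered by mean EV level, with 1 point per EV library and an open diamond for the single whole-cell library. RAB4A and RAB40B lie far to the right of the cell value in EV 10K and EV 100K, while RAB1B, RAB7A, RAB10 and RAB11B lie lower in EV 100K than in the other pellets.

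Between pellets, 2 of the 45 tested RAB genes were higher and 0 lower in EV 10K against EV 2.8K (edgeR quasi-likelihood test, Benjamini-Hochberg adjusted over 15525 genes, threshold 0.05), where 4.15% of all tested genes were higher and 2.22% lower. The 2 were RAB4A and RAB40B. At an unadjusted p under 0.05 there were 6 RAB genes, and DESeq2 called 3 higher and 0 lower. In EV 100K against EV 2.8K, 8 RAB genes were higher and 6 lower, against backgrounds of 12% and 13.8% of all genes, and of 12.8% and 16.7% of protein-coding genes. In EV 100K against EV 10K, 2 were higher and 6 lower, against 3.7% and 7.23%. Over the 3 pellets jointly 13 of 45 RAB genes passed, where 23.3% of all genes did, and 27.1% of protein-coding genes, so that the share of RAB genes called lay near the background. Without EV 100K library 1, the 8 higher genes were 4. The 2 higher in EV 100K against EV 10K were 4 without EV 2.8K library 1, and 1 without EV 10K library 3, EV 100K library 1 or EV 100K library 2. The 13 of the joint test were 8 without EV 100K library 2. Their median log2 fold change was 0.26 in EV 10K over EV 2.8K, 0.0030 in EV 100K over EV 2.8K and -0.25 in EV 100K over EV 10K, against -0.014, -0.064 and 0.010 over all genes. The summed RAB level was 2092 ± 19.3 CPM in EV 2.8K, 2635 ± 68.7 CPM in EV 10K and 2546 ± 136.8 CPM in EV 100K (SD, 3 libraries each), against 2188 CPM in the cells. Without RAB4A and RAB40B it was 2032 ± 18.5, 2305 ± 158 and 1881 ± 50.9 CPM, against 2157 in the cells.

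**Figure D2:**
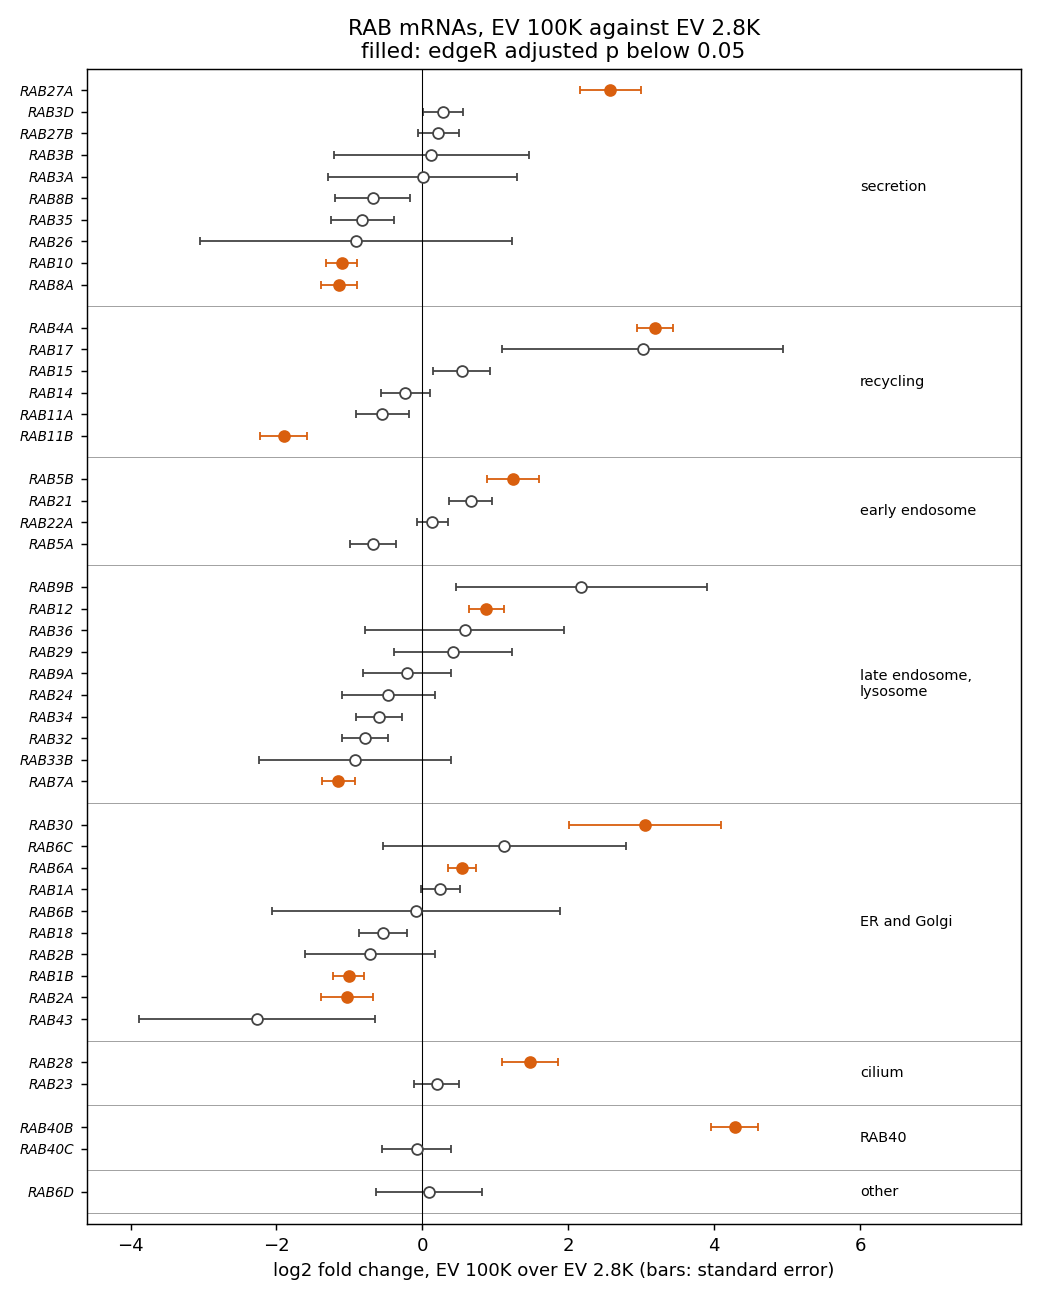
Fitted log2 fold change of each tested RAB gene in EV 100K over EV 2.8K, grouped by the role of the protein, with bars of 1 standard error and filled points for an adjusted p below 0.05. The 8 higher and 6 lower genes are spread over the roles, and secretion, recycling, late endosome and ER and Golgi each hold both directions.

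RAB27A, which docks endosomes at the plasma membrane, was highest in EV 100K. It had 9.57, 6.05 and 12.2 CPM in EV 2.8K, 19.7, 24.1 and 12.4 CPM in EV 10K and 66.3, 57.3 and 44.1 CPM in EV 100K, against 7.43 CPM in the cells. The EV 100K libraries lay above all others, and every EV 10K library lay above the highest EV 2.8K library, by little in 1 case. RAB27A rose in EV 100K over EV 2.8K by 2.57 ± 0.418 on the log2 scale (SE, edgeR adjusted p = 0.000142) and over EV 10K by 1.57 ± 0.404 (edgeR adjusted p = 0.0157). In EV 10K over EV 2.8K the log2 fold change was 1.00 ± 0.401 and did not pass (edgeR adjusted p = 0.158). The call against EV 10K was lost without EV 10K library 3, EV 100K library 1 or EV 100K library 2, with log2 fold changes of 1.34, 1.44 and 1.56 (edgeR adjusted p = 0.0806, 0.116 and 0.0682, in a range of 0.00188 to 0.116 over 17 alternatives). PIGBOS1 on the same strand covers 3.27% of the RAB27A exon bases and PIGB on the other strand 2.75%.

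RAB27B, its paralog, had 42.0, 37.5 and 37.9 CPM in EV 2.8K, 59.6, 77.4 and 55.2 CPM in EV 10K and 39.1, 46.8 and 53.1 CPM in EV 100K, against 25.997 CPM in the cells. All 9 EV libraries stood above the cell library, and the EV 10K libraries above those of either other pellet. No pellet comparison of RAB27B passed: its log2 fold changes were 0.70 ± 0.276 in EV 10K over EV 2.8K (edgeR adjusted p = 0.152), 0.22 ± 0.276 in EV 100K over EV 2.8K (edgeR adjusted p = 0.646) and -0.48 ± 0.277 in EV 100K over EV 10K (edgeR adjusted p = 0.344). The ratio of RAB27A to RAB27B counts within each library is given as a description, without a test, since the pair was picked with the pellet results known. On the log2 scale it was -2.13, -2.63 and -1.64 in the EV 2.8K libraries, -1.60, -1.68 and -2.16 in those of EV 10K and 0.76, 0.29 and -0.27 in those of EV 100K, against -1.81 in the cells. RAB27B counts exceeded RAB27A counts in all EV 2.8K and EV 10K libraries and in the cells, and in 1 of 3 EV 100K libraries. The mean ratio was 0.26 ± 0.516 in EV 100K, against -2.14 ± 0.498 in EV 2.8K (SD, 3 libraries each).

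For the recycling endosome pair, RAB11A had 35.7, 36.0 and 33.3 CPM in EV 2.8K, 24.6, 51.6 and 66.2 CPM in EV 10K and 20.5, 28.8 and 23.4 CPM in EV 100K, against 57.8 CPM in the cells. Its EV 10K libraries spanned the values of EV 2.8K and overlapped the range of EV 100K. Its EV 100K libraries all lay below those of EV 2.8K. Its log2 fold changes were 0.43 ± 0.362 in EV 10K over EV 2.8K, -0.55 ± 0.366 in EV 100K over EV 2.8K and -0.98 ± 0.368 in EV 100K over EV 10K, and none passed (edgeR adjusted p = 0.588, 0.319 and 0.106). Without EV 10K library 1, the lowest of its pellet, the last was -1.28 and passed (edgeR adjusted p = 0.0243, in a range of 0.0243 to 0.413 over 17 alternatives).

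RAB11B had 139.6, 80.2 and 102.9 CPM in EV 2.8K, 82.5, 70.0 and 117.3 CPM in EV 10K and 24.6, 41.7 and 21.3 CPM in EV 100K, against 90.02 CPM in the cells. The EV 100K libraries lay below all others. RAB11B fell by 1.90 on the log2 scale in EV 100K against EV 2.8K (SE 0.317, edgeR adjusted p = 0.000183) and by 1.63 against EV 10K (SE 0.315, edgeR adjusted p = 0.00221). An antisense gene, RAB11B-AS1, covers 12.4% of its exon bases, and the sources do not state whether the counting used strand. The log2 ratio of RAB11A to RAB11B averaged -1.58 ± 0.408 for EV 2.8K, -1.003 ± 0.672 for EV 10K and -0.22 ± 0.335 for EV 100K (SD of 3 libraries), against -0.64 in the cells. That pair was picked in the same way, and its ratio is likewise given without a test.

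RAB35, which acts at the plasma membrane and on recycling endosomes, had 69.4, 28.2 and 21.3 CPM in EV 2.8K, 31.4, 22.3 and 44.0 CPM in EV 10K and 19.2, 24.4 and 24.4 CPM in EV 100K, against 36.6 CPM in the cells. The 3 pellets overlapped, and 1 EV 2.8K library stood well above the other two. No comparison passed, with log2 fold changes of -0.29 ± 0.424, -0.82 ± 0.430 and -0.53 ± 0.429 for EV 10K over EV 2.8K, EV 100K over EV 2.8K and EV 100K over EV 10K (edgeR adjusted p = 0.793, 0.182 and 0.554). Without EV 2.8K library 1 the first of these was 0.38 and the second -0.15, again without passing. An antisense gene covers 14.8% of the RAB35 exon bases. At this spread a change of RAB35 was not detectable, which does not show that its level was the same.

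**Figure D3:**
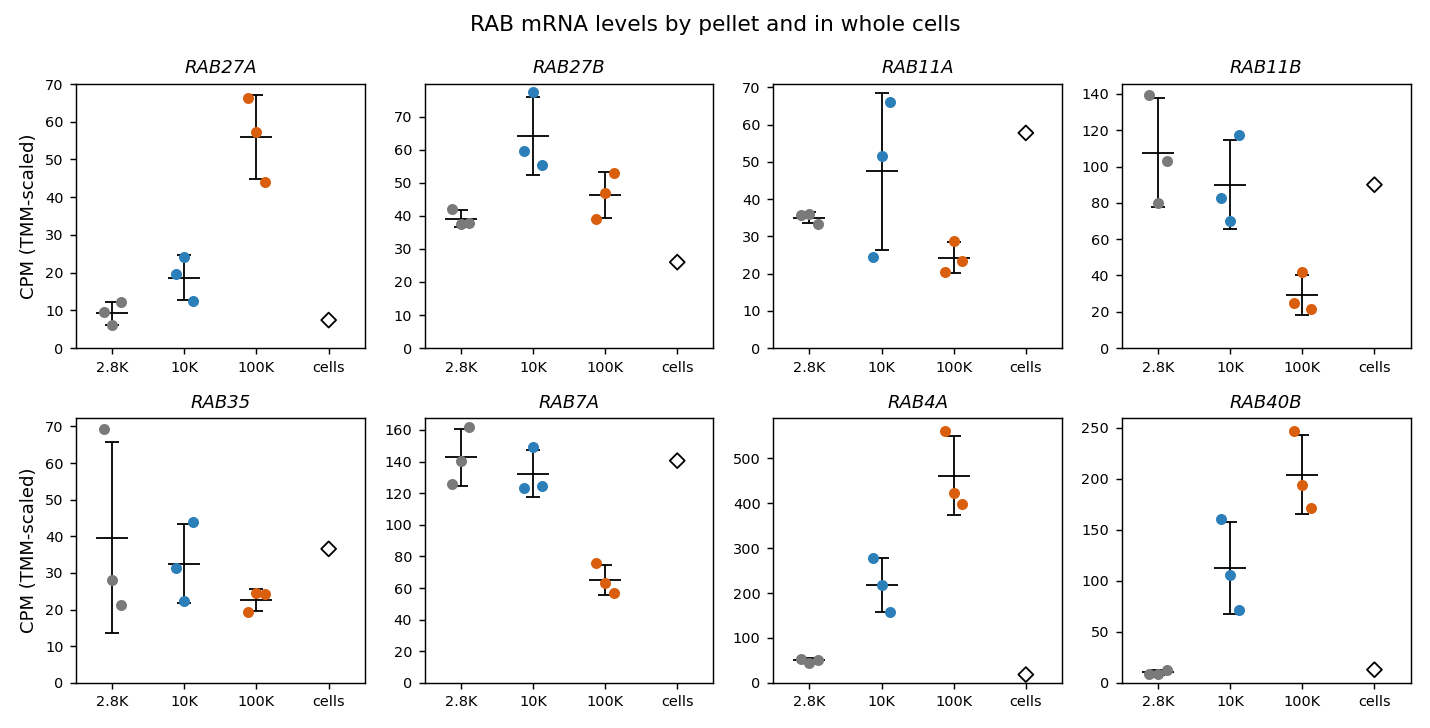
TMM-scaled CPM of 8 RAB genes in each library, with points for the 3 libraries of EV 2.8K, EV 10K and EV 100K, black bars for their mean ± SD, and an open diamond for the single whole-cell library; each panel has its own axis from 0. RAB27A, RAB4A and RAB40B are highest in EV 100K, RAB11B and RAB7A are lowest there, and RAB27B, RAB11A and RAB35 show no difference that passed the test.

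Of the 10 secretion and exocytosis RAB genes tested, 1 rose and 2 fell in EV 100K against EV 2.8K, and the same numbers against EV 10K. The 2 that fell in both were RAB8A and RAB10, which carry Golgi and endosome cargo to the plasma membrane. RAB10 had 119.4, 134.8 and 150.9 CPM in EV 2.8K, 119.5, 140.2 and 148.6 CPM in EV 10K and 61.8, 66.1 and 63.2 CPM in EV 100K, against 196.3 CPM in the cells. It fell by 1.11 in EV 100K against EV 2.8K (SE 0.214, edgeR adjusted p = 0.000732), and its values in EV 2.8K and EV 10K were alike in range. RAB8A had 263.9, 162.0 and 132.2 CPM in EV 2.8K, 174.8, 172.2 and 194.2 CPM in EV 10K and 76.6, 87.6 and 92.5 CPM in EV 100K, against 180.5 CPM in the cells, a fall of 1.14 on the log2 scale in EV 100K against EV 2.8K (SE 0.243, edgeR adjusted p = 0.00172). An antisense gene covers 37.8% of the RAB8A exon bases.

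Of the RAB3 genes, known for regulated exocytosis in neurons and glands, the tested RAB3A, RAB3B and RAB3D did not pass in any comparison. RAB3C had no count in any library and was not tested. RAB3A had 18, 105 and 9 counts in EV 2.8K and 97, 43 and 97 counts in EV 10K. In EV 100K it had 9, 39 and 1 counts, against 341 counts in the cells. RAB3D had 57.3, 65.7 and 77.9 CPM in EV 2.8K, 48.2, 90.8 and 72.5 CPM in EV 10K and 68.3, 83.5 and 96.8 CPM in EV 100K, against 65.0 CPM in the cells, with a log2 fold change of 0.29 ± 0.273 in EV 100K over EV 2.8K (edgeR adjusted p = 0.520). RAB3B was low and uneven, with 112, 95 and 31 counts in EV 2.8K, 71, 6 and 0 counts in EV 10K and 27, 41 and 46 counts in EV 100K, against 377 counts in the cells. Its EV 10K libraries ran from 0 to 7.94 CPM, so that no difference was detectable.

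Of the RAB genes that passed in EV 100K against EV 2.8K, RAB40B and RAB4A had the largest log2 fold changes. RAB4A had 53.4, 44.6 and 51.7 CPM in EV 2.8K, 277.7, 217.1 and 158.7 CPM in EV 10K and 561.6, 423.1 and 398.7 CPM in EV 100K, against 18.4 CPM in the cells. No 2 pellets overlapped, and all 9 EV libraries lay above the cell library. RAB4A rose by 2.11 ± 0.233 on the log2 scale in EV 10K over EV 2.8K (edgeR adjusted p = 2.05e-05), by 3.19 ± 0.242 in EV 100K over EV 2.8K (edgeR adjusted p = 5.88e-08) and by 1.07 ± 0.225 in EV 100K over EV 10K (edgeR adjusted p = 0.00399). The gene SPHAR is annotated on the same strand over 19.6% of the RAB4A exon bases and had no count in any library.

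RAB40B had 9.11, 9.04 and 12.9 CPM in EV 2.8K, 160.7, 105.7 and 71.6 CPM in EV 10K and 247.2, 194.2 and 170.9 CPM in EV 100K, against 12.9 CPM in the cells. The EV 2.8K libraries lay close to the cell level, while the EV 10K and EV 100K libraries were all above it, in ranges that did not overlap. RAB40B rose by 3.43 ± 0.311 in EV 10K over EV 2.8K (edgeR adjusted p = 3.01e-06) and by 4.28 ± 0.322 in EV 100K over EV 2.8K (edgeR adjusted p = 5.28e-08). In EV 100K over EV 10K the rise of RAB40B was 0.85 ± 0.281 and did not pass (edgeR adjusted p = 0.0614). It did pass in 9 of 17 alternatives (edgeR or DESeq2 adjusted p between 0.0141 and 0.285 over all 17). Its relative RAB40C, 80.4% identical in coding sequence, had 15.0 to 23.7 CPM in EV 2.8K, 9.84 to 18.8 CPM in EV 10K and 13.8 to 22.4 CPM in EV 100K, against 11.9 CPM in the cells. Those ranges overlapped, and the log2 fold change of RAB40C in EV 100K over EV 2.8K was -0.078 ± 0.477 (edgeR adjusted p = 0.938).

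Of the 4 early endosome RAB genes tested, RAB5B passed in EV 100K against EV 2.8K and the other 3 passed in no comparison. RAB5B had 20.0, 41.2 and 53.0 CPM in EV 2.8K, 47.1, 59.7 and 105.3 CPM in EV 10K and 74.4, 99.3 and 101.5 CPM in EV 100K, against 63.2 CPM in the cells. It was higher in EV 100K over EV 2.8K by 1.25 ± 0.355 on the log2 scale (edgeR adjusted p = 0.0140). RAB5A, a master regulator of early endosome fusion, had 53.6, 65.2 and 35.6 CPM in EV 2.8K, 38.1, 55.8 and 55.2 CPM in EV 10K and 29.4, 36.5 and 31.9 CPM in EV 100K, against 59.1 CPM in the cells. Its log2 fold change in EV 100K over EV 2.8K was -0.68 ± 0.311 and did not pass (edgeR adjusted p = 0.124). Whether RAB5A and RAB5B differ in their response was not tested.

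Of the 10 late endosome, lysosome and autophagy RAB genes tested, RAB7A and RAB32 fell and RAB12 rose in at least 1 comparison. RAB7A, which drives late endosomes to fuse with lysosomes, had 126.0, 140.1 and 162.0 CPM in EV 2.8K, 123.4, 149.4 and 124.2 CPM in EV 10K and 75.6, 63.3 and 56.9 CPM in EV 100K, against 140.6 CPM in the cells. EV 2.8K, EV 10K and the cells shared a range, and EV 100K lay below it. RAB7A fell by 1.15 on the log2 scale in EV 100K against EV 2.8K (SE 0.221, edgeR adjusted p = 0.000702) and by 1.03 against EV 10K (SE 0.221, edgeR adjusted p = 0.00495). RAB12, named for transport from recycling endosomes to lysosomes, had 54.7, 81.3 and 53.7 CPM in EV 2.8K, 92.8, 88.3 and 79.0 CPM in EV 10K and 128.0, 121.0 and 105.2 CPM in EV 100K, against 62.0 CPM in the cells. Its rise of 0.88 ± 0.238 in EV 100K over EV 2.8K (edgeR adjusted p = 0.01003) was lost without EV 100K library 1 (log2 fold change 0.82, edgeR adjusted p = 0.0548, in a range of 0.00165 to 0.0548 over 17 alternatives). RAB32, which works in lysosome-related organelles, fell by 1.09 in EV 100K against EV 10K (SE 0.319, edgeR adjusted p = 0.0341) and passed in neither other comparison. That call was lost without any 1 of the EV 10K libraries or without EV 100K library 1 or 2, with log2 fold changes between -1.15 and -0.88 (edgeR adjusted p between 0.0531 and 0.206 in these 5 omissions).

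Of the 10 ER and Golgi RAB genes tested, 2 rose and 2 fell in EV 100K against EV 2.8K. RAB1A and RAB1B, which both act in transport from the ER to the Golgi and are 76.4% identical in coding sequence, had different values across pellets. RAB1B had 170.0, 152.1 and 165.2 CPM in EV 2.8K, 134.8, 156.8 and 181.0 CPM in EV 10K and 65.9, 93.8 and 85.6 CPM in EV 100K, against 173.1 CPM in the cells, and fell by 1.01 in EV 100K against EV 2.8K (SE 0.217, edgeR adjusted p = 0.00182). RAB1A had 50.8, 44.2 and 69.3 CPM in EV 2.8K, 78.8, 62.4 and 55.6 CPM in EV 10K and 68.0, 70.9 and 58.8 CPM in EV 100K, against 74.8 CPM in the cells, with a log2 fold change of 0.25 ± 0.269 in EV 100K over EV 2.8K that did not pass (edgeR adjusted p = 0.587). The difference between these 2 genes was not tested, and antisense or opposite-strand genes cover 42.6% of the RAB1B exon bases and 22.9% of those of RAB1A. RAB1B also fell against EV 10K by 0.95 (SE 0.217, edgeR adjusted p = 0.00727), a call lost without EV 100K library 1 (fold change -0.81, edgeR adjusted p = 0.0627, in a range of 0.00115 to 0.0627 over 17 alternatives).

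RAB6A, a Golgi RAB, had 139.3, 139.3 and 175.3 CPM in EV 2.8K, 229.9, 267.7 and 220.9 CPM in EV 10K and 252.4, 220.6 and 199.0 CPM in EV 100K, against 120.6 CPM in the cells. All EV 10K and EV 100K libraries lay above all EV 2.8K libraries. The log2 fold change was 0.65 ± 0.197 in EV 10K over EV 2.8K (edgeR adjusted p = 0.0589) and 0.55 ± 0.197 in EV 100K over EV 2.8K (edgeR adjusted p = 0.0498). RAB6A thus passed narrowly in the second comparison. The call was lost in 9 of 17 alternatives (edgeR or DESeq2 adjusted p between 0.0133 and 0.216 over all 17). Of these 9, 6 left out 1 library (EV 2.8K library 1 or 2, EV 10K library 1, or any of EV 100K). RAB30 and RAB2A were the other 2 ER and Golgi genes to pass, and were named after their values were seen, as were RAB5B and RAB32. RAB30 had 0, 4.49 and 3.94 CPM in EV 2.8K and 29.5, 17.4 and 24.9 CPM in EV 100K, with a log2 fold change of 3.06 ± 1.04 (edgeR adjusted p = 0.0382). Its call was lost without EV 2.8K library 2 or 3, EV 10K library 1 or any 1 of the EV 100K libraries (edgeR adjusted p between 0.0581 and 0.127 in these 6 omissions). RAB2A fell by 1.03 in EV 100K against EV 2.8K (SE 0.357, edgeR adjusted p = 0.0403), a call lost without EV 2.8K library 1 or 2, EV 10K library 2 or 3 or any 1 of the EV 100K libraries (edgeR adjusted p between 0.057 and 0.165 in these 7 omissions).

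RAB28, a RAB of the cilium and of photoreceptors, had 17.9, 12.1 and 11.1 CPM in EV 2.8K, 21.6, 21.8 and 25.95 CPM in EV 10K and 43.8, 40.6 and 31.4 CPM in EV 100K, against 9.44 CPM in the cells. The 3 pellets did not overlap. RAB28 rose by 1.47 ± 0.383 in EV 100K over EV 2.8K (edgeR adjusted p = 0.00759), and this call was lost without EV 100K library 1 (log2 fold change 1.38, edgeR adjusted p = 0.0595, in a range of 0.000982 to 0.0595 over 17 alternatives). RAB23, the other RAB listed for the cilium, did not pass in any comparison.

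Counting genes whose CPM ranges did not overlap, 7 RAB genes were higher and 1 lower in EV 10K against EV 2.8K (all genes 11.7% and 9.71%), 12 higher and 9 lower in EV 100K against EV 2.8K (23.8% and 20.8%), and 9 higher and 11 lower in EV 100K against EV 10K (19.2% and 16.7%). There were 30 tested RAB genes that passed no pairwise test. Their median level was 4.41 CPM per kb, against 30.6 CPM per kb for the 15 that passed at least 1. The share of RAB mRNA held by single genes shifted with these changes. RAB4A made up 2.14% to 2.57% of all RAB counts in EV 2.8K, 5.996% to 10.8% in EV 10K and 16.6% to 20.96% in EV 100K, against 0.842% in the cells.

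Whole cells were represented by 1 library, so the following differences have no replicate check and no test. Over 2-fold higher than the cells in all 3 libraries of a pellet were 1 RAB gene in EV 2.8K, 5 RAB genes in EV 10K and 6 in EV 100K of 51 compared, where 2.89%, 4.78% and 10.3% of 22370 genes were, and 427, 717 and 1380 of 13535 protein-coding genes. Over 2-fold lower in all 3 libraries were 0 RAB genes in EV 2.8K, 2 RAB genes in EV 10K and 3 in EV 100K, where 11.5%, 15% and 16.4% of genes were, and 6.35%, 8.56% and 14.7% of protein-coding genes. The 3 lower in EV 100K became 5, 9 and 5 without EV 100K library 1, 2 and 3, 1 with DESeq2 size factors and 11 with no scaling. In EV 2.8K, leaving out library 1, 2 or 3 gave 2, 2 or 3 higher and 2, 5 or 3 lower. RAB4A was the gene above the cells in EV 2.8K, by 1.43 on the log2 CPM scale with a prior count of 2 (range 1.27 to 1.53), and it was above them by 3.52 in EV 10K (3.10 to 3.90) and by 4.62 in EV 100K (4.42 to 4.92). RAB40B differed from the cells by -0.33 in EV 2.8K (-0.50 to 0.0058), by 3.04 in EV 10K (2.46 to 3.62) and by 3.95 in EV 100K (3.71 to 4.25). RAB27A differed by 0.26 in EV 2.8K (-0.29 to 0.70), by 1.26 in EV 10K (0.72 to 1.68) and by 2.86 in EV 100K (2.54 to 3.13).

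RAB27B stood above the cells by 0.59 in EV 2.8K, by 1.28 in EV 10K and by 0.82 in EV 100K, past 2-fold in all 3 libraries in EV 10K only. RAB6D, which shares most of its sequence with RAB6A and RAB6C, was above the cells by 3.14 in EV 10K and 2.90 in EV 100K. Behind these stood 85 to 131 counts per library in EV 10K and 44 to 102 in EV 100K, against 39 in the deeper cell library. Of the 3 genes over 2-fold below the cells in every EV 100K library, RAB11B had the largest mean difference, of -1.68 (-2.07 to -1.11), followed by RAB10 at -1.62 (-1.67 to -1.57) and RAB2B at -1.41 (-1.63 to -1.13). The 2 genes below the cells in EV 10K were RAB20 and RAB42, with 6 and 3 counts over all 3 EV 10K libraries, against 77 and 49 counts in the cells. In EV 100K, RAB11A and RAB35 differed from the cells by -1.26 and -0.69, not past 2-fold in all 3 libraries.

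**Figure D4:**
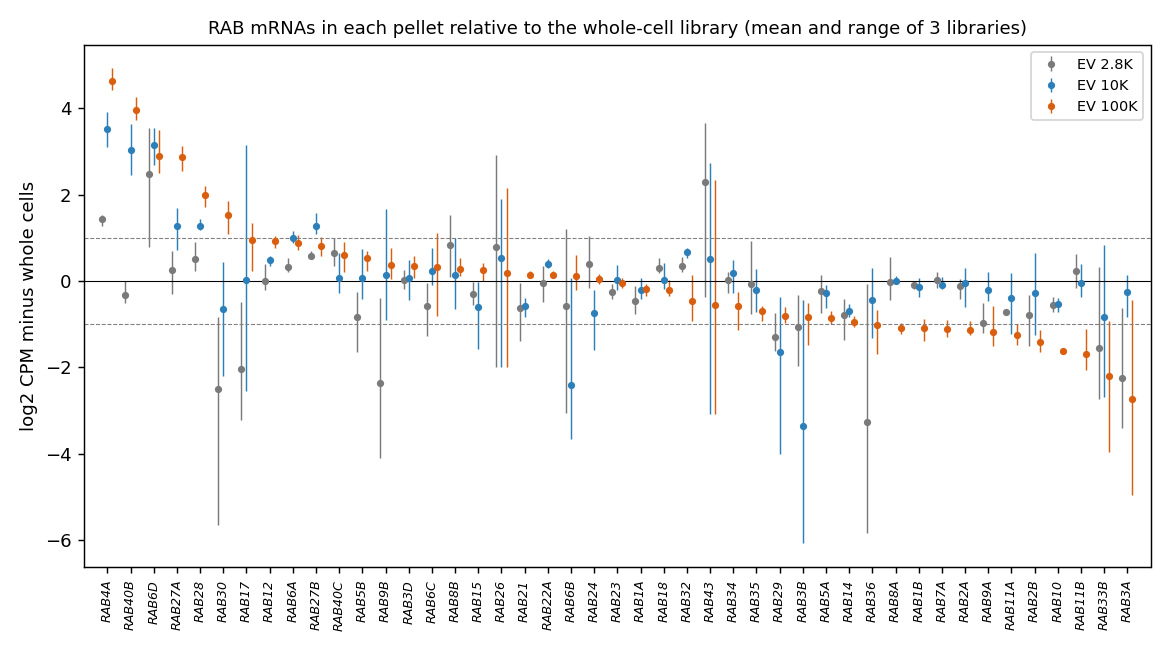
Difference in log2 CPM (prior count 2) between each EV pellet and the whole-cell library for the 45 RAB genes tested between pellets, with points for the mean and bars for the range of the 3 libraries; dashed lines mark 2-fold. RAB4A, RAB40B, RAB6D, RAB27A, RAB28 and RAB30 lie past 2-fold above the cells in all EV 100K libraries. RAB11B, RAB10 and RAB2B lie past 2-fold below them in all EV 100K libraries. The EV 100K means of further genes, such as RAB1B, RAB2A, RAB3A, RAB7A, RAB8A, RAB9A and RAB11A, also lie past 2-fold below, though not every library does. Most other genes lie within 2-fold or have wide ranges.

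The proteins that switch, lipidate and use RABs were read from lists of 128 genes, of which 121 were tested. Of these 7 were higher and 1 lower in EV 10K against EV 2.8K, where 4.15% and 2.22% of all tested genes were. In EV 100K against EV 2.8K 28 were higher and 11 lower, against 12% and 13.8% of all tested genes and 12.8% and 16.7% of protein-coding genes. In EV 100K against EV 10K 8 were higher and 3 lower, against 3.7% and 7.23% of all. Their median log2 fold changes were -0.013, 0.25 and 0.23 in these comparisons, against -0.014, -0.064 and 0.010 over all genes. Both directions occurred among the 8 genes of prenylation and recycling off membranes, with 1 higher and 2 lower in EV 100K against EV 2.8K (all genes 12% and 13.8%). RABGGTB, a subunit of the enzyme that attaches lipids to RABs, had 41.4, 52.4 and 37.8 CPM in EV 2.8K, 234.5, 129.7 and 154.6 CPM in EV 10K and 398.9, 308.4 and 406.3 CPM in EV 100K, against 36.8 CPM in the cells, a rise of 3.06 ± 0.253 in EV 100K over EV 2.8K (edgeR adjusted p = 1.03e-07). RABAC1, a RAB acceptor of the Golgi membrane, fell by 2.75 in EV 100K against EV 2.8K (SE 0.740, edgeR adjusted p = 0.00978). The RABAC1 call was lost without EV 100K library 3 (log2 fold change -2.33, edgeR adjusted p = 0.0519, in a range of 0.00157 to 0.0519 over 17 alternatives).

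Exchange factors, which load RABs with GTP, had 9 members higher and 2 lower of 39 tested in EV 100K against EV 2.8K, beside 12% and 13.8% of all genes. RAB3IP, an exchange factor of RAB8, had 21.9, 23.3 and 40.8 CPM in EV 2.8K, 121.7, 105.2 and 108.0 CPM in EV 10K and 218.3, 176.2 and 167.7 CPM in EV 100K, against 19.5 CPM in the cells, and rose by 2.69 ± 0.270 in EV 100K over EV 2.8K (edgeR adjusted p = 9.63e-07). DENND1A, an exchange factor of RAB35, rose by 1.90 ± 0.343 (edgeR adjusted p = 0.000403), and RGP1, part of the exchange factor of RAB6, by 1.62 ± 0.271 (edgeR adjusted p = 0.000199). Genes listed as GTPase activating proteins, a class that switches RABs off, had 7 higher and 3 lower of 31, beside the same 12% and 13.8% of all genes. TBC1D16, TBC1D14 and TBC1D2B had the smallest joint p among them and rose by 1.84, 1.54 and 1.34 in EV 100K over EV 2.8K (edgeR adjusted p = 7.29e-05, 0.000283 and 0.0121). All 3 have the TBC domain that RAB inactivators share, and whether each of them switches a RAB off was not tested. The TBC1D2B call was lost without EV 100K library 1 or 3 (edgeR adjusted p = 0.0525 and 0.0725, in a range of 0.0023 to 0.0725 over 17 alternatives).

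RAB27 effectors had 1 of 8 tested members higher and 0 lower in EV 100K against EV 2.8K, where all genes had 12% higher and 13.8% lower. This was MLPH, which links RAB27A to the motor myosin Va on melanosomes. MLPH had 173.2, 151.1 and 157.7 CPM in EV 2.8K, 223.9, 162.1 and 191.5 CPM in EV 10K and 321.0, 281.8 and 318.9 CPM in EV 100K, against 153.6 CPM in the cells, a rise of 0.91 ± 0.193 (edgeR adjusted p = 0.00156). Effectors of other RABs had 10 higher and 4 lower of 35, against the same background of 12% and 13.8%. MYO5A, the myosin Va heavy chain, had 378.1, 183.1 and 199.2 CPM in EV 2.8K, 433.2, 364.5 and 327.4 CPM in EV 10K and 947.6, 998.0 and 874.8 CPM in EV 100K, against 190.6 CPM in the cells, and rose by 1.87 ± 0.246 (edgeR adjusted p = 1.62e-05). The RAB5 effectors APPL1 and RABEP1 rose by 1.89 ± 0.336 and 1.36 ± 0.241 (edgeR adjusted p = 0.000363 and 0.000344).

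Transcript length was set beside these differences, since the rule for the RAB genes did not use it. Over the 45 tested RAB genes the Spearman correlation between transcript length and the log2 fold change was 0.33 in EV 100K over EV 10K, 0.22 in EV 100K over EV 2.8K and -0.012 in EV 10K over EV 2.8K. Over 11988 protein-coding genes it was 0.35, 0.24 and -0.019. These are descriptions across genes, which share the libraries and are not independent. GC content of the transcript had correlations of -0.17, -0.26 and -0.28 over the RAB genes in the same order of comparisons, and -0.12, -0.19 and -0.16 over the protein-coding genes.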

How the data were processed

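The authors deposited 1 table of whole-number counts per gene or catalogue entry for 10 libraries, not normalized. Per the submitters' processing notes, the processing named GRCh38 and the tools STAR 2.6.1d, cutadapt 2.7, featureCounts 1.6.3 and bcl2fastq 2.19.1.403. Not given in the sources used here are the annotation, whether strand was used and how multi-mapped reads were counted. Per the labels' protocols, Trizol was used for extraction and a SMARTer stranded kit for the total RNA libraries. Groups and set numbers came from the sample titles. Symbols, coordinates and sequences were taken from GENCODE release 29 by identifier, and all 45574 GENCODE identifiers matched.

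Tests used edgeR 4.0.16 in R 4.3.3 on the 9 EV libraries: filterByExpr with a minimum count of 10, TMM scaling, the robust quasi-likelihood F-test, and Benjamini-Hochberg adjustment over 15525 genes with a threshold of 0.05. The 3 pellets shared a single fitted spread per gene, although their biological coefficients of variation differed. With only the 6 libraries compared, the genes called went from 990 to 561 in EV 10K against EV 2.8K. They went from 4013 to 3910 in EV 100K against EV 2.8K and from 1697 to 2777 in EV 100K against EV 10K. SE is the log2 fold change divided by the square root of F. CPM values used TMM factors of all 10 libraries. Differences from the cells used log2 CPM with a prior count of 2. DESeq2 1.42.0 and other settings were alternatives, so each range of adjusted p over the alternatives includes a DESeq2 value beside those of edgeR. The tests were tried on simulated counts. The limits given for a count of 0 cover counting error only, while SD and SE include the spread between libraries. Replicate libraries of 1 pellet differed by more than counting noise, with a chi-square per degree of freedom between 9.30 and 130.

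The RAB genes and the lists were chosen with earlier results of these data known. Named are RAB27A, RAB27B, RAB11A, RAB35, RAB11B, RAB3B, RAB3D, RAB5A, RAB7A, RAB1A and RAB6A, the 5 RAB genes with the smallest p in each direction of each pellet comparison among those that passed, the 3 furthest from the cells in each direction among those past 2-fold in all 3 libraries, the highest of each role per kb, and up to 3 genes per pathway list with the smallest joint p among those that passed. A pathway gene that this rule names is not reported here. Other genes that passed were named after their values were seen.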

Additional observations from a re-analysis of the deposited data

How the results depend on the processing

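Of the counts of RAB genes called between pellets, those for EV 10K against EV 2.8K (2 higher, 0 lower) and those for lower genes (6 in EV 100K against either pellet) kept within 1.5 times under all alternatives run. The 2 genes higher in EV 100K than in EV 10K became 5 with only the 6 libraries compared, and between 1 and 4 when each library was left out in turn. The 8 higher in EV 100K than in EV 2.8K were between 4 and 8 on leaving out each library, with 4 without EV 100K library 1, and the 13 of the joint test between 8 and 14, with 8 without EV 100K library 2. Against the cells, the 3 genes lower in EV 100K became 1 with DESeq2 size factors, 11 with no scaling factor and between 5 and 9 with a library left out. The 5 higher in EV 10K became 3 with no scaling factor. In EV 2.8K the count of lower genes was 1 with a prior count of 0.5 and between 2 and 5 with a library left out, and that of higher genes between 2 and 3. Leaving out a library asks 2 libraries instead of 3 to be past 2-fold at unchanged scaling, which can only keep or raise these counts. The cause of the other shifts was not tested.

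At most a weak pairing by set number was seen: the deviations of same-numbered libraries from their pellet means correlated between -0.0091 and 0.048. Those of differently numbered libraries from different pellets correlated between -0.036 and 0.0299. Whether the sets pair the libraries was not tested. With the replicate block, 2 and 0, 7 and 6, and 3 and 6 RAB genes were higher and lower in EV 10K over EV 2.8K, EV 100K over EV 2.8K and EV 100K over EV 10K, and RAB40B passed in the last (log2 fold change 0.88, edgeR adjusted p = 0.0348, in a range of 0.0141 to 0.285), while RAB30 no longer passed in EV 100K over EV 2.8K (3.32, edgeR adjusted p = 0.0553, in a range of 0.00123 to 0.127). No named gene changed direction where its main value had passed.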
